A study of Mus musculus with 21 samples.

Results

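The genes examined were the kainate receptor subunits Grik1, Grik2, Grik3, Grik4 and Grik5 and the delta receptor subunit Grid1, found by gene name in the deposited table. All 6 of the 6 were among its 16318 genes, all 6 passed the filter on low counts, and none had a count of 0 in any mouse. RNA came from the whole brain of 21 SAMP8 mice, a senescence-accelerated strain, with 1 library per mouse. Of these, 12 had received phosphate-buffered saline (PBS; 6 female, 6 male) and 9 had received HsTX1[R14A] (3 female, 6 male), a peptide that blocks the voltage-gated potassium channel Kv1.3. The peptide was injected under the skin on alternate days at 1 mg/kg, dosing lasted 8 weeks from an age of 4 months, and all mice were 6 months old at the end. All mice are therefore of the accelerated strain, and no mouse of a control strain was among those compared. Library totals ran from 14917174 to 47613792 counts. Levels in whole brain do not separate fewer cells of a type from less RNA per cell.

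Kainate receptors are tetrameric cation channels opened by glutamate. They act on both sides of the synapse, where they carry slow excitatory currents and tune transmitter release. The subunits encoded by Grik1, Grik2 and Grik3 bind kainate with low affinity and can form channels by themselves, whereas those of Grik4 and Grik5 bind it with high affinity and need a partner of the first kind. The delta receptor encoded by Grid1 has the fold of a glutamate receptor but is known as a synaptic organizer, joined to presynaptic neurexins through cerebellins.

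The genes differ widely in their transcripts (GRCm38, GENCODE M21). Grik1 (ENSMUSG00000022935) lies on the minus strand at chr16:87895900-88290265 and has the shortest longest transcript of the 6, with 3655 bases and 47.9% GC. Grik2 (ENSMUSG00000056073, minus strand, chr10:49094833-49788766) has the longest, with 9427 bases, and the lowest GC content, 37.9%. Grik3 (ENSMUSG00000001985) lies on the plus strand at chr4:125490700-125714173, with 8973 bases and 54.2% GC. Grik4 (ENSMUSG00000032017, minus strand, chr9:42518135-42944493) has 5887 bases and 52.2% GC, and Grik5 (ENSMUSG00000003378, minus strand, chr7:25009849-25072346) has 4061 bases and the highest GC content, 61.7%. Grid1 (ENSMUSG00000041078) lies on the plus strand at chr14:34820108-35583379, with 5720 bases and 49.9% GC. The median over all genes of the table was 3282 bases, so that all 6 lie above it. Small noncoding RNA genes overlap exons of Grik4 (59 bases, Gm24420) and Grid1 (91 bases, Gm27617) on the same strand, and neither is in the table.

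Grik2 and Grik3 stood at the ends of the treatment comparison, and the stretch from 250 to 21 bases before the RefSeq start of each is printed to show how unlike their upstream sequences are (RefSeq, GRCm38.p6, read 5′ to 3′ on the gene's strand). Capitals mark the GC box GGGCGG or its reverse complement CCGCCC. Grik2 covers chr10:49788775-49789004 (minus strand) and Grik3 chr4:125490446-125490675 (plus strand).
Grik2: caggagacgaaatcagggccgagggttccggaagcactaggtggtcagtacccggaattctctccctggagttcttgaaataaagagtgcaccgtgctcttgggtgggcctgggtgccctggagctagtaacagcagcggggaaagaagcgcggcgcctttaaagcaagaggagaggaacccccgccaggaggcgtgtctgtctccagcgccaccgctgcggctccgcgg
Grik3: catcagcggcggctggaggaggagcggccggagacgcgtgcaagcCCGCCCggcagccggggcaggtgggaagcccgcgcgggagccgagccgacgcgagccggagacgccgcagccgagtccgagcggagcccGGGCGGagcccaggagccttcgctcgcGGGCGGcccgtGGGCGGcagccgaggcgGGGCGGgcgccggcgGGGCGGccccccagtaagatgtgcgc
The Grik3 stretch held 6 GC boxes and 38 CpG dinucleotides at 80.9% GC, and the Grik2 stretch 0 GC boxes and 16 CpG dinucleotides at 61.7% GC. Of 32851 mouse windows of the same length, 29.8% held at least 1 such box, and their median GC content was 51.7%. The promoter table held 4 of the 6 genes, and only the stretches of Grik2 and Grik3 were examined. A link between upstream sequence and treatment difference was not tested.

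The first question was whether blocking Kv1.3 altered the mRNA of these receptors. Grid1 and Grik3 were higher in HsTX1[R14A] mice, by 1.45-fold and 1.82-fold. Grik1 was 1.30-fold and Grik5 1.39-fold higher without passing the threshold, and Grik4 and Grik2 stood at 1.11-fold and 1.01-fold. The count of called genes was thus 2 of 6, both higher, where edgeR's quasi-likelihood test with sex in the model called 31.6% of all 16303 genes tested (15.5% higher and 16.1% lower; adjusted p at most 0.05). The median log2 fold change was 0.42 over the 6 genes and -0.01 over all genes tested. None of the 6 separated the treatments: in each, at least 5 of 9 treated mice lay below the highest PBS mouse, and only 0.0184% of all genes had groups that did not overlap.

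Levels are given in CPM, counts scaled to the size of the library, after TMM scaling. Grid1, a delta subunit widely expressed in the forebrain, ranged in PBS females from 20.7 over a median of 41.9 to 55.8 CPM. In PBS males the lowest, median and highest values were 20.4, 33.9 and 46.1 CPM. The treated females had 53.6, 60.8 and 61.3 CPM, and the treated males ran from 32.6 over 44.6 to 59.5 CPM. Of the 9 treated mice, 8 lay above the PBS median and 4 above the highest PBS mouse, female 84. Group means were 36.6 ± 11.5 CPM (SD, n = 12) with PBS and 51.0 ± 10.03 CPM (SD, n = 9) with HsTX1[R14A]. The log2 fold change was 0.53 ± 0.16 (SE; edgeR, adjusted p = 0.0225). The call held with each mouse left out in turn, with adjusted p from 0.0107 to 0.0445.

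Grik3 encodes a low-affinity subunit, best known from presynaptic sites. It ranged from 13.2 over 56.4 to 79.1 CPM in PBS females and from 15.9 over 33.9 to 56.4 CPM in PBS males. Treated females had 71.7, 85.2 and 107.9 CPM, and treated males ran from 29.2 over 63.1 to 97.7 CPM. Again 8 of 9 treated mice lay above the PBS median and 4 above the highest PBS mouse. The treated male 93 was the exception, with the lowest treated value of Grik3, Grik4, Grik5 and Grid1. Means were 42.5 ± 21.4 CPM (SD, n = 12) and 73.4 ± 25.5 CPM (SD, n = 9), and the log2 fold change was 0.87 ± 0.28 (SE; edgeR, adjusted p = 0.0289), higher than that of 98.8% of all genes tested. The call was lost without PBS male 90 (adjusted p = 0.0552), treated female 98 (0.0577), treated male 88 (0.0540) or treated male 81 (0.0538).

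Grik1 and Grik2 encode the other low-affinity subunits. Grik1 was the least abundant of the 6 in counts. Its values ran from 5.61 over 6.30 to 7.85 CPM in PBS females and from 2.96 over 6.25 to 7.09 CPM in PBS males. The treated females, at 7.55, 8.25 and 10.6 CPM, were higher than all but 1 of the PBS females, whereas the treated males, from 5.46 over 6.10 to 9.92 CPM, overlapped the PBS males. The log2 fold change was 0.38 ± 0.15 (SE; edgeR, adjusted p = 0.0530). Grik1 passed the threshold without PBS mouse 84 (0.0425), 102 (0.0310), 82 (0.0423) or 83 (0.0475) or treated male 93 (0.0376) or 92 (0.0424), and also in voom (0.0452) and DESeq2 (0.0348) and with RLE scaling (0.0484) or library totals (0.0407).

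Grik2, the most studied kainate subunit and a target of RNA editing, showed the smallest difference and the smallest spread. It ran from 66.5 over 75.7 to 88.0 CPM in PBS females and from 61.2 over 69.7 to 75.4 CPM in PBS males. Treated females had 59.6, 78.6 and 81.6 CPM, and treated males ran from 69.3 over 71.9 to 80.5 CPM. The treated mice lay inside the PBS range except female 71, which was the lowest of all 21 mice. The log2 fold change was 0.01 ± 0.06 (SE; edgeR, adjusted p = 0.904), with a 95% interval from -0.12 to 0.14.

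Grik4 and Grik5 encode the high-affinity subunits. Grik5, a common partner of Grik2 in brain kainate receptors, had the most counts of the 6. It ran from 42.4 over 145.7 to 192.9 CPM in PBS females and from 61.0 over 127.1 to 146.8 CPM in PBS males. Treated females had 175.6, 193.4 and 212.1 CPM, and treated males ran from 91.3 over 156.6 to 201.7 CPM. The 7 of 9 treated mice above the PBS median included all 3 females. The log2 fold change was 0.47 ± 0.21 (SE; edgeR, adjusted p = 0.0836), and it passed the threshold without treated male 93 (0.0439). Grik4, which is enriched in hippocampal CA3 neurons, ran from 10.999 over 20.3 to 23.7 CPM in PBS females and from 11.6 over 17.99 to 22.4 CPM in PBS males. Treated females had 19.9, 23.2 and 29.6 CPM, and treated males ran from 13.8 over 17.3 to 21.1 CPM. Only 1 of 9 treated mice, female 71, was above the highest PBS mouse. The log2 fold change was 0.15 ± 0.14 (SE; edgeR, adjusted p = 0.394).

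**Figure D1:**
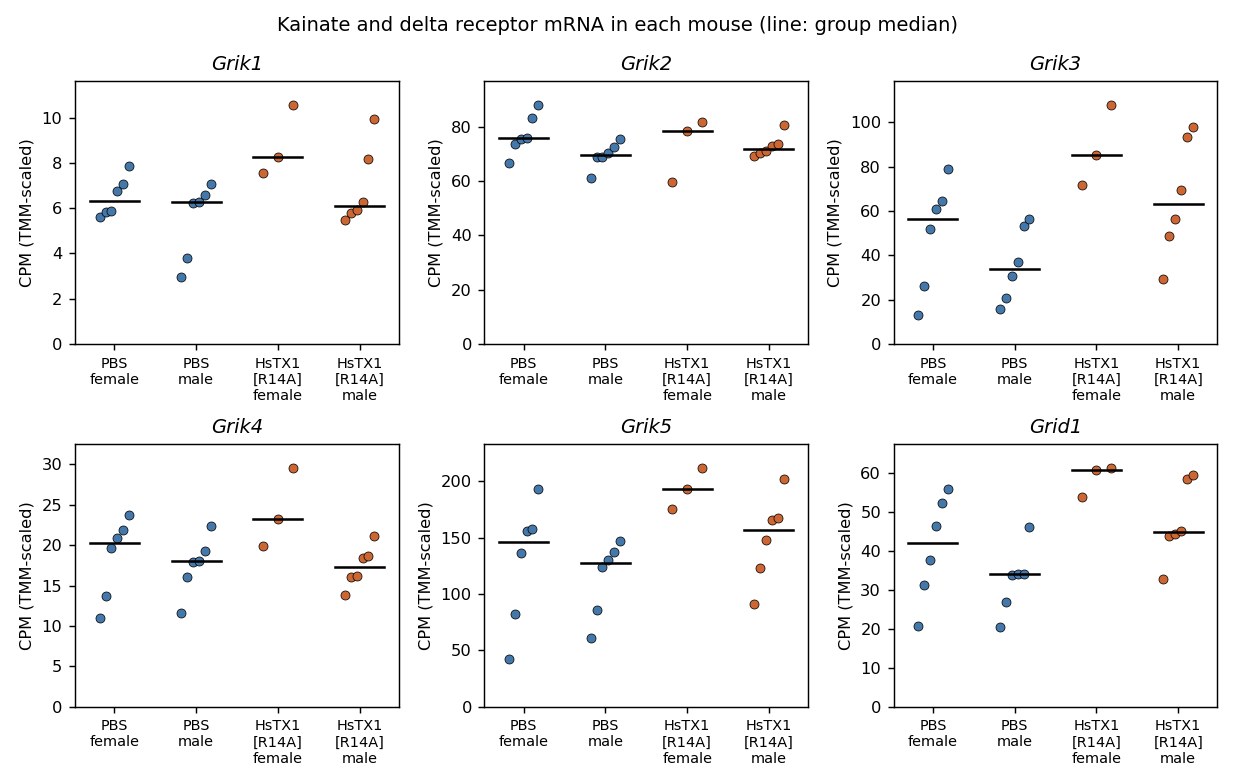
Level (CPM, TMM-scaled) of each receptor gene in each of the 21 mice, by treatment and sex; each point is a mouse and the line is the group median. Grik2 stays within 59.6 to 88.0 CPM in all mice, whereas Grik3 spans 13.2 to 107.9 CPM and overlaps between treatments.

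Sex was the other contrast in the design. The fitted values lay lower in males than in females for all 6 genes, with log2 differences (male minus female) of -0.45 for Grik3, -0.32 for Grid1, -0.29 for Grik1, -0.25 for Grik5, -0.24 for Grik4 and -0.09 for Grik2. None was called (edgeR, adjusted p from 0.446 to 0.523), in a comparison that called 0.0552% of all genes (0.0307% higher and 0.0245% lower in males). The treatment by sex interaction called 0 of 16303 genes with edgeR, 0 with DESeq2 and 0 with voom, and 270 had an unadjusted p under 0.05 in edgeR. The largest interaction among the 6 was that of Grik4, where the treatment difference in males minus that in females was -0.40 ± 0.28 (SE; edgeR, unadjusted p = 0.161, adjusted p over 0.99). In separate fits, Grik4 stood at 0.39 in females and -0.01 in males, and Grik3 at 0.84 and 0.89. Grid1 gave 0.53 in females and 0.54 in males. Neither fit called a gene of the whole table (0 of 16209 in females, where 3312 had an unadjusted p under 0.05, and 0 of 16102 in males, where 4440 did). The fit of males without treated male 93 called 2 of the 6, Grid1 and Grik3, and 11.6% of all genes (1879 of 16199).

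The 5 genes other than Grik2 also varied among mice that had received PBS alone, Grik3 and Grik5 most widely. The highest PBS value was 5.99 times the lowest for Grik3, 4.55 times for Grik5, 2.73 times for Grid1, 2.65 times for Grik1 and 2.15 times for Grik4, against 1.44 times for Grik2. The SD of log2 CPM over the 12 PBS mice was 0.85 for Grik3, larger than that of 96.7% of genes tested, and 0.64 for Grik5, larger than 91.5%. It was 0.47 for Grid1 (larger than 78.5%), 0.40 for Grik1 (68.1%) and 0.37 for Grik4 (63.2%). That of Grik2 was 0.14, larger than only 12.04%, and the median over all genes was 0.30. PBS mice 103 and 90 held the lowest or next lowest values of Grik3, Grik4, Grik5 and Grid1.

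Levels of the 5 genes went together. Among the 15 pairs, all 10 pairs that leave out Grik2 were correlated over the 12 PBS mice (Pearson, permutation p adjusted over the 15 at most 0.0472). Grik3 and Grik5 gave r = 0.945 and rho = 0.916 (100000 permutations, adjusted p = 7.5e-05 and 3e-04), and r was 0.898 without the 2 mice farthest from the median. Grik3 and Grid1 gave r = 0.942 and rho = 0.930 (permutation, adjusted p = 7.5e-05 and 3e-04), and r was 0.877 without 2 mice. Over the 10 pairs, r without 2 mice ran from 0.556 (Grik3 and Grik4, 0.818 with all 12) to 0.898 (Grik3 and Grik5). Both members of a pair come from the same libraries, and the share of all gene pairs that go together as closely was not determined. No correlation of Grik2 with the other 5 passed the threshold, with r from -0.376 (Grik4) to 0.270 (Grik1) and adjusted permutation p from 0.314 to 0.756.

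The same 5 genes followed a property of the libraries. For each library, the log2 CPM of every gene, less its mean over the 21 mice, was fitted by a line on log2 longest-transcript length. This length slope is above 0 where long transcripts are relatively abundant, and it was computed over 16224 genes that include the 6. In PBS mice it was -0.0764 ± 0.161 (SD, n = 12) and after HsTX1[R14A] 0.102 ± 0.119 (SD, n = 9). Averaged over the sexes, the gap was 0.201 (labels permuted within sex, 100000 permutations, two-sided p = 0.00646). The slope on GC content differed likewise, at -0.0675 ± 0.145 against 0.0899 ± 0.113 per 10 percentage points (permutation p = 0.0113). Libraries with a slope below -0.1 numbered 5, the PBS mice 103, 73, 101 and 90 and the treated mouse 93.

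Over the 12 PBS mice, the level of Grik5 followed the length slope with r = 0.963 and rho = 0.832 (100000 permutations, two-sided; p = 1e-05, the smallest they can give, and 0.00129; adjusted over the 6 genes 3e-05 and 0.00193). Grid1 gave r = 0.960 and rho = 0.951 (permutation, adjusted p = 4e-05 and 6e-05), and Grik3 gave 0.953 and 0.902 (permutation, adjusted p = 3e-05 and 0.00028). Without the 2 mice farthest from the median slope, r was 0.899 for Grik5, 0.921 for Grid1 and 0.901 for Grik3. Grik4 followed with r = 0.924 and rho = 0.804 (permutation, adjusted p = 7.5e-05 and 0.00324; r = 0.775 without 2 mice) and Grik1 with r = 0.756 and rho = 0.923 (permutation, adjusted p = 0.0095 and 0.00021; r = 0.822 without 2 mice). Grik2, the member with the longest transcript, gave r = -0.214 and rho = -0.133 (permutation, adjusted p = 0.505 and 0.683). Library names take 2 forms in the deposited headers, and within the 10 PBS mice of the commoner form r was 0.953 for Grik3, 0.960 for Grik5 and 0.977 for Grid1. The other form has 2 PBS mice, too few for a value. The GC slope was followed over the 12 PBS mice too, except by Grik2. There r was 0.960 for Grik3, 0.956 for Grik5 and 0.905 for Grid1 (permutation, adjusted p at most 0.00014). It was 0.881 for Grik4 and 0.669 for Grik1 (permutation, adjusted p = 0.00045 and 0.0174), and -0.294 for Grik2 (0.357). The share of all genes that follow either slope as closely was not determined.

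**Figure D2:**
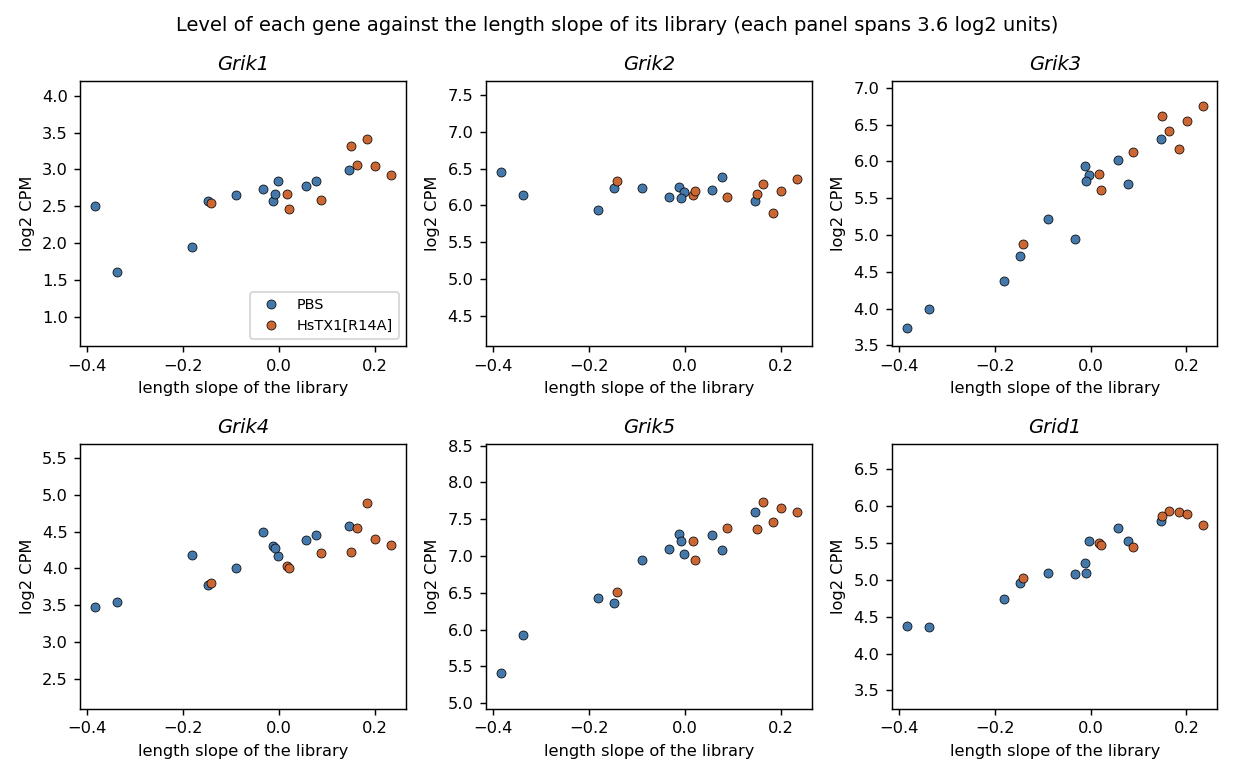
Log2 CPM of each receptor gene (vertical axis, 3.6 log2 units in each panel) against the length slope of its library (horizontal axis), 1 point per mouse, coloured by treatment. In 5 panels the points climb with the slope, with treated mice mostly at the right, and Grik2 stays level.

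Treatment differences were therefore recomputed with this property taken into account. With the length slope as a covariate, edgeR called 0 of the 6 and 0 of all 16303 genes (1865 with an unadjusted p under 0.05). The log2 fold changes were then 0.06 for Grid1, -0.02 for Grik3, 0.06 for Grik1, -0.18 for Grik5, -0.23 for Grik4 and 0.07 for Grik2, with adjusted p from 0.394 to 0.957. Since the slope itself differed between treatments, what belongs to the slope and what belongs to the treatment cannot be told apart in this fit. With each library's trend on length and GC content removed instead, 15.3% of genes were called, among them Grid1 at 0.31 (adjusted p = 0.0309) and Grik3 at 0.39 (adjusted p = 0.0401), while Grik1 gave 0.37 (0.0606), Grik5 0.09, Grik4 -0.17 and Grik2 -0.02. Without the 5 libraries of lowest slope, edgeR called 21.4% of genes, with Grid1 at 0.37 (adjusted p = 0.0162) and Grik3 at 0.61 (adjusted p = 0.0166), and Grik5 stood at 0.26 (0.0505). That fit has no slope term. Its PBS libraries still ran lower in slope, from -0.0892 (mouse 91) to 0.147 (84), than its treated libraries, from 0.0166 (89) to 0.234 (98).

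**Figure D3:**
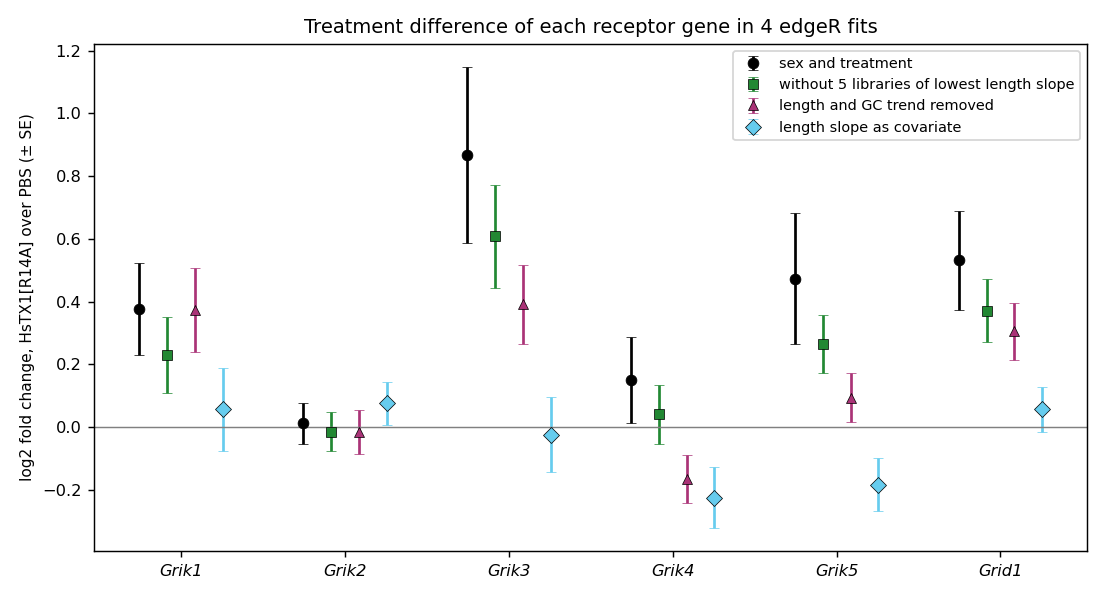
Treatment difference (log2, HsTX1[R14A] against PBS) of each receptor gene in 4 edgeR fits; the bars are standard errors. Grik3 falls from 0.87 in the model of sex and treatment to 0.61 without 5 libraries, 0.39 with the trend removed and -0.02 with the length slope as covariate.

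Within library name forms, the 10 PBS and 5 treated mice of the commoner form gave 0.93 for Grik3 (edgeR, adjusted p = 0.0981) and 0.63 for Grid1 (0.0674). The 2 PBS and 4 treated mice of the other form gave 0.43 (0.855) and 0.08 (0.913). With the name form as a covariate Grid1 kept its call (adjusted p = 0.0498) and Grik3 did not (0.0607).

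Compared per length, the 6 genes were ordered in PBS mice. The level was taken as counts per kilobase of longest transcript, scaled to 1 common sum in every mouse. Grik5 came first with a median of 67.3, followed by Grik2 (15.1), Grid1 (11.8), Grik3 (10.02), Grik4 (6.69) and Grik1 (3.28). Grik5 exceeded Grik2 in 12 of 12 mice, by 1.83 ± 0.70 on the log2 scale (SD; exact sign-flip test over 4096 flips, adjusted p = 0.00122). Grik2 exceeded Grid1 in 9 of 12 by 0.35 ± 0.51 (exact test, adjusted p = 0.0317), but with the summed exon length of each gene in place of the longest transcript the difference was -0.08 (0.577), so this pair has no settled order. Grid1 exceeded Grik3 in 11 of 12 mice by 0.57 ± 0.43 (exact test, adjusted p = 0.00244), Grik3 exceeded Grik4 in 8 of 12 by 0.47 ± 0.59 (0.0293), and Grik4 exceeded Grik1 in 12 of 12 by 0.90 ± 0.34 (0.00122).

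On the same per-length scale, Grik5 held most of the summed kainate subunit signal, with a median share of 63.9% in PBS and 66.04% in HsTX1[R14A] mice. Grik2 held 15.7% and 11.7%, Grik3 9.76% and 12.5%, Grik4 6.33% and 5.12%, and Grik1 3.38% and 3.13%. The high-affinity pair Grik4 and Grik5 together held 70.9% in PBS and 71.6% in treated mice. PBS mouse 103, with the lowest length slope of all libraries, had both the highest share of Grik2, 37.9%, and the lowest of Grik5, 42.4%. These shares were not tested, because most of the levels behind them followed the length slope of the libraries. Grik2, with the longest transcript, did not follow it.

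**Figure D4:**
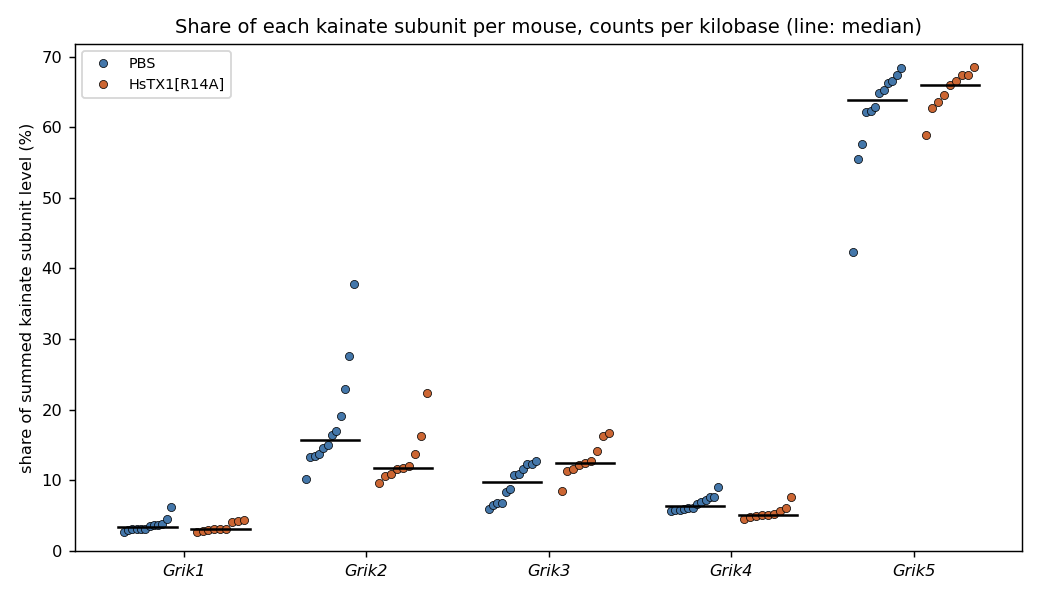
Share (%) of each kainate subunit in the summed per-length level of Grik1 to Grik5, 1 point per mouse, with medians as lines. Grik5 holds 42.4 to 68.3% in PBS mice and 58.9 to 68.5% in treated mice, and the Grik2 share reaches 37.9% in PBS mouse 103.

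The genes whose log2 CPM was most like each member over all 21 mice were taken from the 13302 genes that averaged a log2 CPM of 1 or more. For Grik3 they were Ppip5k1 (r = 0.985), Chd4 (0.985) and Dnmt1 (0.983), and for Grik5 Crtc1 (0.994), Scaf1 (0.990) and Adgrb2 (0.989). Grid1 was most like Spock2 (0.984), AU040320 (0.982) and Ptprn2 (0.981), Grik4 most like Dock9 (0.941), Glis3 (0.926) and Cblb (0.924), and Grik1 most like Galns (0.950), Dnah5 (0.945) and Lsamp (0.936). Grik2 had no partner as close. Its nearest were the glutamate receptor gene Grm5 (0.744), Gprin3 (0.688) and BC023829 (0.681). All of these correlations share the libraries and their length slopes, and are a description.

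Genes that work with these receptors were examined as 4 lists of 36 genes, 35 of which were tested. Of the 35, 10 (28.6%) were higher and 0 lower (edgeR). Of all genes 15.5% were higher and 16.1% lower, or 31.6% in either direction. Among 10 kainate receptor partners the median log2 fold change was 0.15 and 1 was called, Grip1, a PDZ scaffold of glutamate receptors, at 0.25 (adjusted p = 0.0223), a call lost without treated female 98 (0.0559). The auxiliary subunits Neto1 and Neto2, which set the gating of kainate receptors, stood at 0.20 (0.0691) and -0.21 (0.120), and Neto1 passed the threshold without mouse 104 (0.0491), 85 (0.0477) or 71 (0.0352). Among 12 delta receptor partners the median was 0.49 and 4 were called. They were the cerebellin Cbln4 at 0.46 (0.0156), the neurexin Nrxn2 at 0.67 (0.0213) and the scaffolds Magi2 at 0.41 (0.0255) and Shank2 at 0.76 (0.0333). Cbln1, the cerebellin of cerebellar granule cells, was 13.6 ± 6.33 CPM (SD, n = 12) with PBS and 24.8 ± 29.7 CPM (SD, n = 9) with HsTX1[R14A]. Cbln1 was not called (edgeR, adjusted p = 0.0773). Its log2 fold change of 1.03 ran from 0.32 (without treated male 74) to 1.20 with a mouse left out. Cbln1 was called without treated male 93 (0.0479). Cbln3 had the largest log2 fold change of the delta list, 3.51, and was not called (edgeR, adjusted p = 0.103). In treated mice its SD also exceeded its mean (15.5 ± 42.2 CPM). The same held for the cerebellar markers Gabra6 (10.8 ± 29.7 CPM) and Pcp2 (4.82 ± 12.8 CPM), but not for Itpr1 (580 ± 147 CPM). Whether the Cbln1 difference follows the amount of cerebellum in each sample was not tested.

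Among 10 AMPA and NMDA receptor subunits tested, the median log2 fold change was 0.41 and 4 were called (edgeR), all higher. Over all genes 31.6% were called, 15.5% higher and 16.1% lower. They were the AMPA subunit Gria1 at 0.30 (adjusted p = 0.0274) and the NMDA subunits Grin1 at 0.81 (0.0301), Grin2b at 0.89 (0.0169) and Grin3a at 0.54 (0.0217). Gria2, which makes AMPA receptors impermeable to calcium, stood at -0.12 (0.155). Some kainate and AMPA subunit mRNAs carry adenosine-to-inosine edits. Of the 3 genes in the family of the editing enzymes, Adar was higher at 0.61 (edgeR, adjusted p = 0.0163). Adarb1 at 0.30 (0.157) and Adarb2 at 0.25 (0.141) were not called. With a mouse left out, Cbln4, Nrxn2, Grin2b, Grin3a and Adar kept their calls. Those of Magi2 (without 90 or 81; adjusted p = 0.0518 and 0.0506) and Gria1 (without 71 or 72; 0.0569 and 0.0540) were lost, as was that of Grin1 without 90, 98, 88 or 81 (0.0510 to 0.0630). Shank2 was lost without 101, 90, 98, 72, 74, 88 or 81 (0.0540 to 0.0647). With the length slope as covariate none of the 35 was called, nor was any gene of the whole table. The medians of the kainate, delta, AMPA and NMDA, and editing lists were then 0.03, 0.04, -0.03 and -0.05. With the trend on length and GC content removed, 4 of the 35 were called, Cbln4, Grin1, Grin2b and Adar, where 15.3% of all genes were called.

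**Figure D5:**
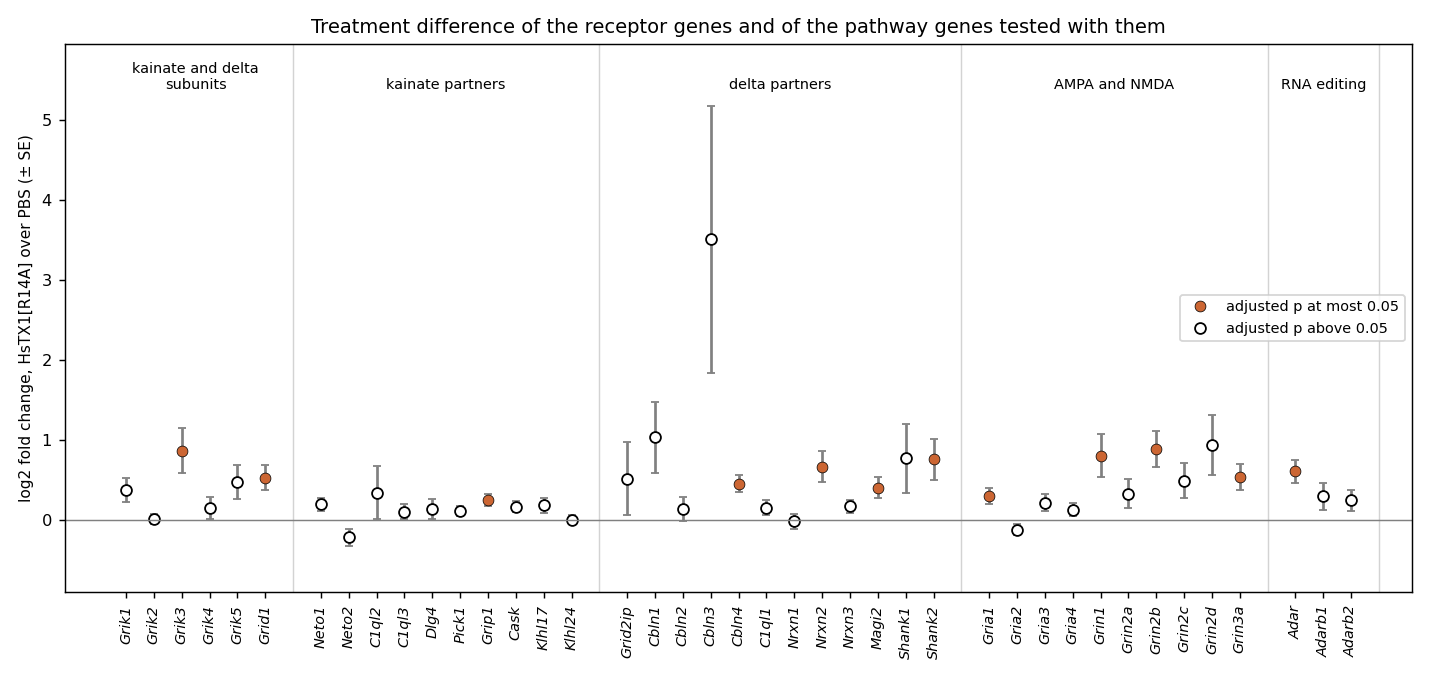
Treatment difference (log2, HsTX1[R14A] against PBS) with its standard error (edgeR) for the 6 receptor genes and 35 pathway genes, grouped by list; filled points have an adjusted p of at most 0.05. All filled points lie above 0, from 0.25 (Grip1) to 0.89 (Grin2b).

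Markers of cell types and regions were present in these brains, and none of the 80 was at 0 in all mice. The neuron list had 1 of 11 higher, with summed levels of 6149 to 8765 CPM in PBS and 7146 to 10085 CPM in treated mice. Oligodendrocyte markers had 4 of 8 lower (4396 to 6728 against 3315 to 4907 CPM), astrocyte markers 3 of 8 lower (2951 to 4882 against 3159 to 4942 CPM) and microglia markers 2 of 8 lower (385 to 557 against 329 to 487 CPM). Oligodendrocyte precursor markers had 2 of 6 higher (155 to 336 against 178 to 338 CPM), endothelial markers 1 of 7 higher (55.8 to 124 against 71.8 to 142 CPM) and hippocampal markers 1 of 7 higher and 1 lower (154 to 327 against 206 to 316 CPM). In the lists for choroid plexus (69.1 to 1127 against 58.9 to 832 CPM), cerebellum (544 to 963 against 597 to 1516 CPM), striatum (673 to 1394 against 316 to 1388 CPM) and erythrocytes (5.82 to 157 against 15.1 to 87.6 CPM), none was called. Over all genes tested, 15.5% were called higher and 16.1% lower. With the length slope as covariate, 0 markers were called in each list. With the trend on length and GC content removed, 5 oligodendrocyte, 2 microglia, 2 hippocampal, 1 astrocyte, 1 endothelial and 1 oligodendrocyte precursor marker were called, and 0 in the other lists. The part of these markers in the receptor differences was not tested.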

How the data were processed

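RNA of 21 SAMP8 whole brains was sequenced by the authors, who used STAR to align reads to GRCm38 and Salmon to quantify genes. The deposited values are estimated counts per gene, not normalized. The labels name a SMARTER mRNA-Seq kit and the study's methods a stranded MGI kit, so strandedness is uncertain for overlapping genes. The table's 53 other per-sample columns (37 of CPM and 16 of counts) and the authors' own fold changes, p-values and FDR were not used. Estimated counts were rounded (90.5% were whole to within 0.01). Totals ranged from 14917174 to 36207554 counts in PBS mice (median 25193122.5) and from 17552413 to 47613792 in HsTX1[R14A] mice (median 24465565). How much of the spread between mice is counting error was not determined. Grik1, the gene with the fewest counts of the 6, had 79 in PBS mouse 103.

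After filterByExpr, which kept 16303 genes, TMM scaling and the quasi-likelihood test of edgeR 4.0.16 (R 4.3.3) were applied in a model of sex plus treatment, with Benjamini-Hochberg adjustment over all genes at 0.05. Standard errors were derived from the F statistic, and log2 CPM carries a prior count of 2. Lengths and GC content are those of the longest transcript in GENCODE M21. The receptor genes, lists and tests were chosen with earlier results of these data known. The genes named are the 6 receptor genes, genes of the 4 pathway lists, the 3 genes most correlated with each receptor gene, and the cerebellar markers. A gene of these lists is not reported here and was left out of their counts. The code was tested on simulated data.

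Alternatives were limma 3.58.1 with voom, DESeq2 1.42.0, RLE scaling, library totals, other count filters, a model without sex, a term for the library name form, each form alone, sample quality weights, 1 surrogate variable (sva 3.50.0), the length slope as covariate, subtraction of a loess trend (span 0.5) on length and GC content per library, exon union length, and each mouse left out. The GC slope as covariate, the fit without libraries of a length slope below -0.1, and leaving out mice in the fits of each sex and in the length slope difference were added after the data had been seen.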

Additional observations from a re-analysis of the deposited data

How the results depend on the processing

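No paired analysis was possible because each mouse number belongs to 1 mouse and none is shared between groups. The study randomized treatment within each cage. The labels give no cage, so cage could not enter the models. The count of receptor genes called for treatment (2) was 1 with no sex term or with the name form as covariate, and 0 with the length slope or the GC slope as covariate, with 1 surrogate variable, or within either library name form alone. It was 2 or 3 in the other 9 alternatives, and ran from 1 (without mouse 90, 98, 88 or 81) to 4 (without 93) with a mouse left out. The count of pathway genes called (10) was 6 with no sex term or the name form, 5 with 1 surrogate variable, 4 with the trend removed, and 0 with either slope or within either form. It ran from 7 (without 90, 98 or 81) to 14. In males alone the receptor count ran from 0 to 2 (without 93), and in females it was 0 with each mouse left out. The receptor genes called for sex or interaction numbered 0 in the 7 alternatives run for them (voom, DESeq2, RLE scaling, both count filters, the name form and the length slope as covariates) and with each mouse left out, and the length slope difference ran from 0.167 to 0.221.

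Some values changed sign. With the length slope as covariate they were -0.024 for Grik3, -0.23 for Grik4, -0.18 for Grik5, -0.086 for Shank2 and -0.083 for Grin1. With the GC slope they were -0.21 for Grik4 and -0.13 for Grik5, with the trend removed -0.17 for Grik4 and -0.016 for Grik2, and with 1 surrogate variable -0.060 for Grik4. Within the rarer name form they were -0.034 for Grik4, -0.18 for Cbln1, -0.064 for Grin3a, 0.073 for Neto2 and 0.037 for Gria2. Grik2, at 0.01 in the model of sex and treatment, was -0.0061 with no sex term, -0.021 within the commoner form and -0.0145 without the libraries of lowest slope, and ran from -0.0147 to 0.0537 with a mouse left out. The order of Grik2 over Grid1 was -0.085 with exon union length. The cause was not tested.

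Over all genes, treatment calls numbered 5144, from 2289 (without 90) to 6614 (without 93) with a mouse left out, 2984 with no sex term, 1999 with the name form as covariate, 2110 with 1 surrogate variable, 2488 with the trend removed, 3485 without the libraries of lowest slope, and 0 with either slope or within either form. Of the calls, 49.1% were higher with TMM and 71.7% with library totals, which moved no receptor gene to the other direction.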
